A study of Mus musculus with 6 samples.

Results

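Purinergic genes were examined in mouse hippocampus after stroke: 10 genes that encode receptors for extracellular nucleotides and adenosine and the cell-surface enzymes that turn the first into the second. They were the genes whose symbol in the authors' deposited table equals P2ry12, P2ry13, P2ry6, P2ry1, P2rx7, P2rx4, Entpd1, Nt5e, Adora1 or Adora2a. All 10 were found, out of 55471 genes listed and 30480 with a mean count above 0, and all 10 had an adjusted p. The tissue was hippocampus of wild-type mice, collected 24 hours after cerebral ischemia and reperfusion, a stroke model in which vessels are blocked and reopened, so both groups carried that injury. Of the 6 samples, 3 were from mice given Visudyne, which holds the light-activated compound verteporfin, and 3 were from mice given saline. The series uses Visudyne to ablate lymphatic vessels of the meninges and asks what that does to the hippocampus. The labels give no strain, sex, age or uninjured group, and they leave unsaid whether samples are separate animals, so p-values may measure technical spread only.

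Injured and active brain cells release ATP, which is cut in steps outside the cell to ADP, AMP and adenosine, so one released molecule is read in turn by different receptors. Microglia, the resident macrophages of the brain, carry P2Y receptors for ADP and UDP and ATP-gated P2X channels, and ADP sensed by P2Y12 draws their processes toward damage. Adenosine acts on receptors of neurons and vessels, and in the hippocampus it is best known for damping excitatory transmission through the receptor that Adora1 encodes.

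The stretches just upstream of 4 of these genes are shown because these are the most abundant microglial receptor of the set, P2ry12, and the 3 genes with the smallest p-values, P2rx4, Nt5e and P2ry13. Each is the 250 bases before the RefSeq gene start in build GRCm38.p6, written 5′ to 3′ on the strand of the gene. Capitals mark GAGGAA or GGAAGT on either strand, purine-rich letters of the kind bound by ETS factors, the family of the macrophage factor PU.1. The stretch for P2ry12 is chr3:59262986-59263235 on the minus strand, and that for its neighbour P2ry13 is chr3:59210883-59211132 on the same strand. The stretch for P2rx4 is chr5:122707294-122707543 and that for Nt5e is chr9:88327359-88327608, both on the plus strand.
P2ry12: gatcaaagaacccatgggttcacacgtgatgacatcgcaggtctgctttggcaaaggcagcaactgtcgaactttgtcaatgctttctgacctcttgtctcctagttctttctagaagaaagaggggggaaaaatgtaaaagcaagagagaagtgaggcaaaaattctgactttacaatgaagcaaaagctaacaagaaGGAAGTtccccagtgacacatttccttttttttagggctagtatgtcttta
P2ry13: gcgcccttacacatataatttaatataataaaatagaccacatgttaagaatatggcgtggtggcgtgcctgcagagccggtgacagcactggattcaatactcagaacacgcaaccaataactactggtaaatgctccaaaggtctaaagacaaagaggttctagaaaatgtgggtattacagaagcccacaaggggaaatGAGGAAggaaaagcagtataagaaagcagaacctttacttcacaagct
P2rx4: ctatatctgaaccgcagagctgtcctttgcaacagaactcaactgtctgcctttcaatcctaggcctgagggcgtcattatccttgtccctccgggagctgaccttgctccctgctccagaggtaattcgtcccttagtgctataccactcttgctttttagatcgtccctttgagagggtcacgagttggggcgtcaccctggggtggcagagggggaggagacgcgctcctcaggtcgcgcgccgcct
Nt5e: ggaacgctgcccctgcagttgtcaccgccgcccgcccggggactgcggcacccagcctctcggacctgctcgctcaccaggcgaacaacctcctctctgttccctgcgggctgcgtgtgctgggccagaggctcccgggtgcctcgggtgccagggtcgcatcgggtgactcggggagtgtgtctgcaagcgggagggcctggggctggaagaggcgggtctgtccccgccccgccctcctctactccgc
The P2ry12 stretch held GGAAGT once and the P2ry13 stretch held GAGGAA once, while those of P2rx4 and Nt5e held neither. Of the 8 members with an entry in the RefSeq table, 3 had a match, the third being Adora1. P2ry6 and Adora2a were not matched to an entry. GAGGAA occurred in 23.1%, GGAAGT in 20.0% and either of them in 36.8% of 27025 mouse promoter stretches of the same length, so a match is common. P2ry12 and P2ry13 start 52.1 kb apart, and P2rx7 and P2rx4 start 63.6 kb apart on chromosome 5.

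The values come from the authors' comparison of the groups, which lists for each gene a mean normalized read count, a shrunken fold change on the log2 scale and p-values, without saying which treatment is the numerator. Directions are therefore given by the sign of the deposited fold change. A positive sign would stand for higher levels with Visudyne under the alphabetical default of DESeq2, but no file states the order. Means of the lowest genes fall on 6 steps, each the worth of 1 read in 1 library. The steps of 3 libraries, here P1, P2 and P3, belong to the positive side, with size factors of 1.20, 1.06 and 0.584. Those of N1, N2 and N3 belong to the negative side, with size factors of 1.52, 1.22 and 0.754, so P3 was the shallowest library and N1 the deepest. Because every mean is a sum of whole reads times these steps, the reads of each library could be recovered for 9 of the 10 members. The means of all genes sum to 25011655 normalized reads. The libraries cannot be tied to sample names or to a treatment, so their values are given one by one, and no test beyond the authors' own was made on them. The label hippocampus was matched by its neuronal markers: Prox1 of dentate granule cells had a mean of 2333 normalized reads and Fibcd1 of CA1 a mean of 4065 in the authors' deposited table. Genes best known from tissue next to the hippocampus also had counts, with Ttr of the choroid plexus at a mean of 33085 and Drd1 of striatal neurons at 109 in the authors' deposited table. Whether such tissue was in the samples was not tested.

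Adora1 was by far the most abundant member, while P2ry1 and Nt5e were lowest per kb of exon and close to each other. By mean count, not scaled for length, Adora2a was lowest at 45.6, beside 47.4 for P2ry1. Per kb of exon, the mean over all libraries was 1272 normalized reads for Adora1, which encodes the inhibitory adenosine receptor of hippocampal neurons. The ADP receptors P2ry12 and P2ry13 followed with 159.7 and 118 per kb. P2ry6 had 44, P2rx4 37.6 and P2rx7 36.5 per kb, then Entpd1 24.5, Adora2a 14.9, Nt5e 11.4 and P2ry1 11.1 per kb. Among the 9 genes with values by library, 7 of the 8 neighbouring pairs in this order overlapped in their ranges per kb over the libraries. The exception was P2ry13, between 95.2 and 144 per kb, and P2ry6, between 28.6 and 55.6 per kb, so the ADP receptors of microglia stood above the rest. Exons of P2ry12 overlap Med12l on the other strand, and exons of Adora1 overlap Mybph on the other strand. No source used here says whether counting used the strand, so reads could be shared. Med12l had a mean of 933 (p = 0.912) and Mybph a mean of 9.06 (p = 0.240) in the authors' deposited table.

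**Figure D1:**
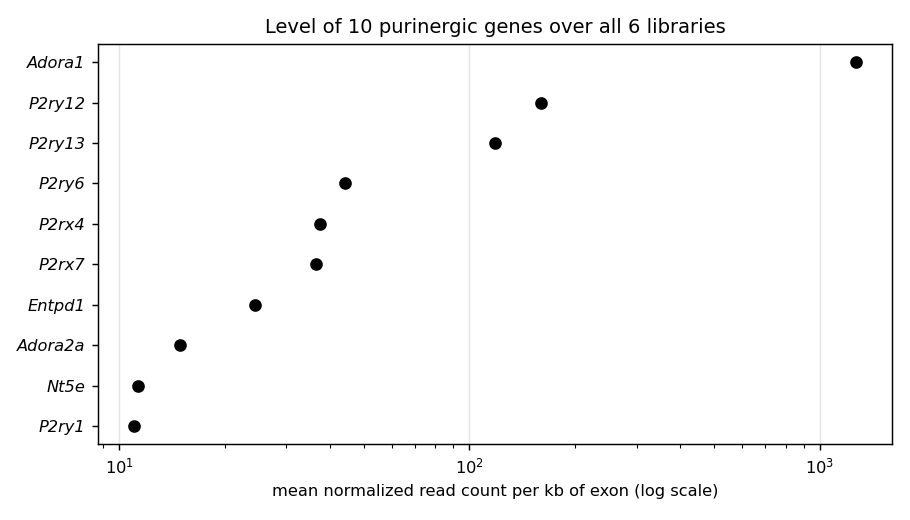
Mean normalized read count per kb of exon over all 6 libraries for the 10 purinergic genes, on a log axis, 1 point per gene with no error since the mean is the authors'. Adora1 stands at 1272 per kb and P2ry1 at 11.1 per kb.

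None of the 10 genes passed the authors' threshold, an adjusted p under 0.05. Over all genes, 0.328% passed it (61 of 18603), and by the authors' deposited table the members' adjusted p-values ran between 0.534 and 0.997. At an unadjusted p under 0.05 there were 3 of 10 members, P2rx4, Nt5e and P2ry13, beside 6.81% of all tested genes, and 2 of these 3 were on the negative side. By sign, 6 members were negative, P2ry12, P2ry13, P2ry6, P2rx7, P2rx4 and Adora1, and 4 were positive, P2ry1, Entpd1, Nt5e and Adora2a. The deposited fold changes of all members were shrunken to within 0.01 of 0, so unshrunken values were back-calculated from them and the p-values. The median over the 9 members with such a value was -0.28 on the log2 scale, beside 0.0026 over all tested genes. The positive-side and negative-side libraries did not overlap for 4 of the 9 recovered members, P2ry13, P2rx7, P2rx4 and Nt5e. That was so for 21.1% of 232 recovered genes out of 300 drawn at means of 40 to 100, a figure that may run high because genes with a fold change near 0 were less often recovered. Nt5e, with a mean of 97.6, lies in that range. P2ry13, P2rx4 and P2rx7 lie above it, with means of 298, 264 and 218, so the share is not matched to their level.

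**Figure D2:**
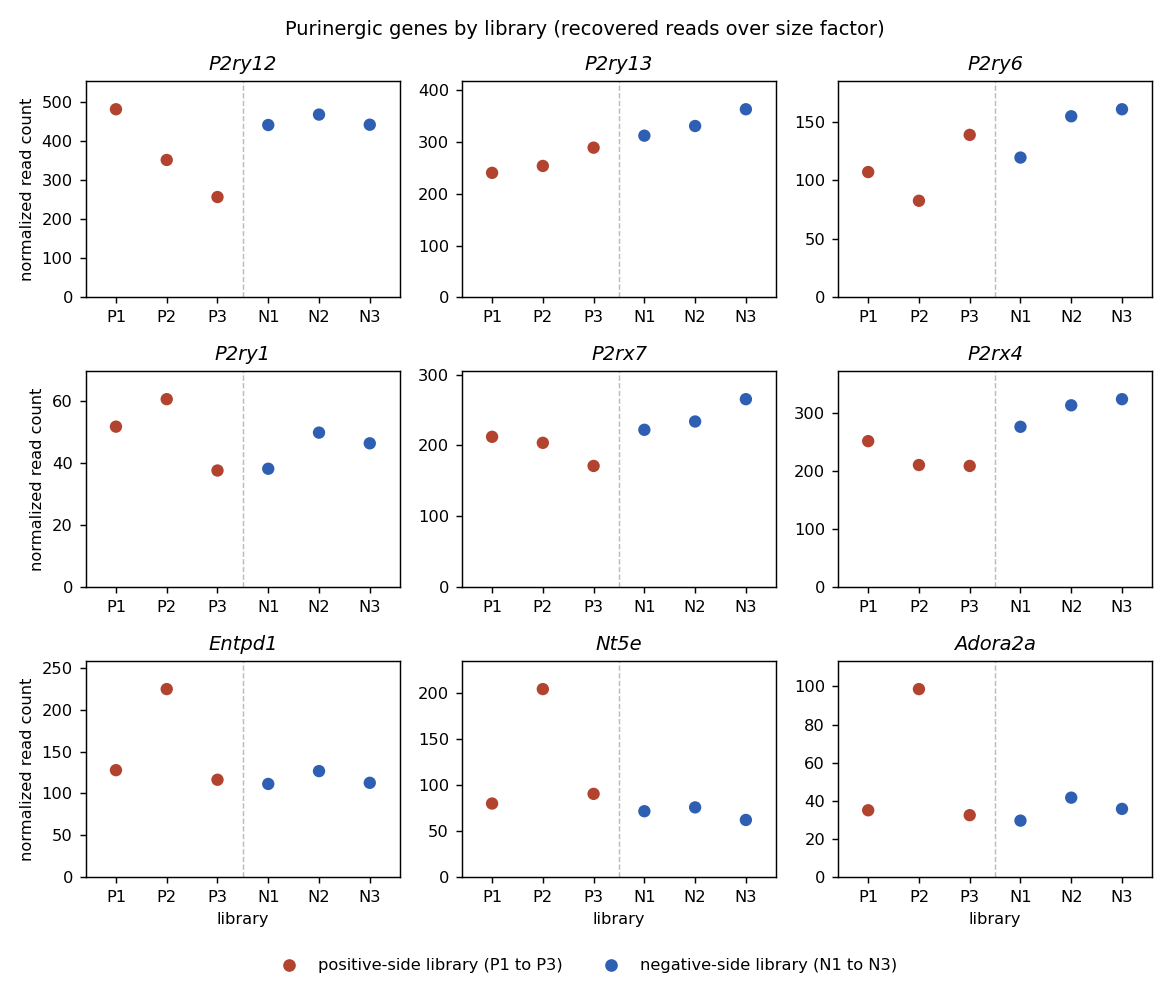
Normalized read count (recovered reads divided by the size factor) of 9 purinergic genes, 1 point per library, with positive-side libraries P1 to P3 at the left and negative-side libraries N1 to N3 at the right of each panel and every axis starting at 0. P2ry13, P2rx7 and P2rx4 are lower in all positive-side libraries, and Entpd1, Nt5e and Adora2a stand out in P2 alone.

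**Figure D3:**
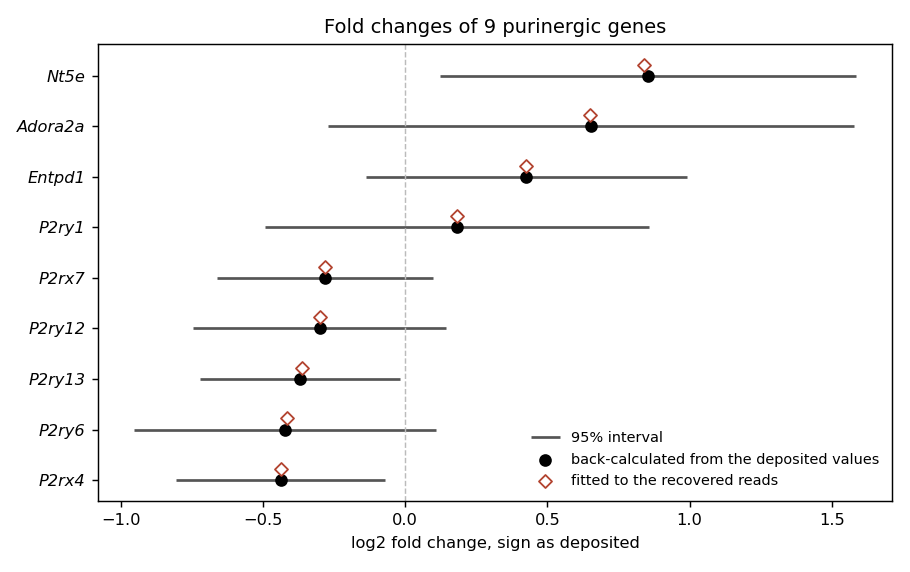
Log2 fold change, sign as deposited, of 9 purinergic genes: black points were back-calculated from the authors' values, lines are their 95% intervals, and open diamonds were fitted to the recovered reads. Read sets were searched near the back-calculated value and had to give the deposited fold change, so diamonds lie near the points by construction. The intervals of P2rx4, P2ry13 and Nt5e do not reach 0, and none of these genes passed the adjusted threshold.

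Among the receptors for ADP and UDP, 3 of 4 had negative fold changes and none passed the adjusted threshold. P2ry13 (ENSMUSG00000036362), a Gi-coupled ADP receptor of microglia, had 241, 254 and 289 normalized reads in P1, P2 and P3, against 312, 331 and 363 in N1, N2 and N3. All positive-side libraries were thus below all negative-side ones. The log2 fold change of P2ry13 was -0.37 ± 0.18 (SE), with p = 0.0395 and adjusted p = 0.679 by the authors' deposited table.

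P2ry12 (ENSMUSG00000036353), the ADP receptor that guides microglial processes, had 481, 352 and 257 normalized reads in P1, P2 and P3, against 441, 468 and 442 in N1, N2 and N3. The negative-side libraries lay within 1.06-fold of each other, while the positive-side ones spread over 1.87-fold, with the highest and the lowest value of all 6, so the sides overlapped. The log2 fold change was -0.30 ± 0.23 (p = 0.184, adjusted p = 0.916 by the authors' deposited table). The value fitted to the reads was -0.56 without P1 and -0.11 without P3, the shallowest library. For P2ry12, 5 sets of whole reads fitted the deposited values, and for P2ry13 and P2rx4 2 sets each did. The set given for each of these genes was chosen by its likelihood.

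P2ry6 (ENSMUSG00000048779), the UDP receptor that prompts microglia to engulf material, had 107, 82.5 and 139 normalized reads in P1, P2 and P3, against 119, 155 and 161 in N1, N2 and N3. The sides overlapped through P3 and N1. On the log2 scale the fold change was -0.42 ± 0.27 (p = 0.120, adjusted p = 0.852 by the authors' deposited table). P2ry1 (ENSMUSG00000027765), a Gq-coupled ADP receptor known from astrocytes and neurons, had 51.8, 60.7 and 37.7 normalized reads in P1, P2 and P3, against 38.2, 49.9 and 46.4 in N1, N2 and N3. These values were mixed between the sides, with as few as 22 reads behind the value in P3. With a log2 fold change of 0.18 ± 0.35 (p = 0.599, adjusted p = 0.979 by the authors' deposited table), its interval from -0.49 to 0.86 held changes in either direction.

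Both ATP-gated channels had lower counts in every positive-side library than in any negative-side library. P2rx4 (ENSMUSG00000029470), a calcium-permeable channel that microglia raise after nerve injury, had 251, 210.4 and 209 normalized reads in P1, P2 and P3, against 276, 313 and 324 in N1, N2 and N3. The gap between the nearest libraries, P1 and N1, was smaller than the range within either side. Its log2 fold change was -0.44 ± 0.19, or 0.738-fold, and p = 0.0192 by the authors' deposited table was the smallest of the 10 members (adjusted p = 0.534).

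P2rx7 (ENSMUSG00000029468), a channel opened by high ATP and tied to the release of interleukin 1, had 212, 204 and 171 normalized reads in P1, P2 and P3, against 222, 234 and 265 in N1, N2 and N3. The sides did not overlap, but P1 and N1 were close. Its log2 fold change was -0.28 ± 0.19 (p = 0.147, adjusted p = 0.880 by the authors' deposited table), with an interval from -0.66 to 0.10 that includes 0. Leaving out any single library kept the fitted fold change of P2rx4 between -0.53 and -0.39, of P2rx7 between -0.35 and -0.20, and of P2ry13 between -0.44 and -0.31.

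The ecto-enzymes had positive fold changes that rested on library P2. Nt5e (ENSMUSG00000032420), CD73, which cuts AMP to adenosine, had 80.2, 205 and 90.7 normalized reads in P1, P2 and P3, against 71.8, 76.0 and 62.3 in N1, N2 and N3. P2 was 2.26 times the next highest library, and P1 and P3 were only slightly above the negative-side libraries. The log2 fold change of Nt5e was 0.85 ± 0.37, or 1.81-fold, with p = 0.0222 and adjusted p = 0.562 by the authors' deposited table. Fitted to the reads it was 0.84 with all libraries and 0.28 without P2.

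Entpd1 (ENSMUSG00000048120), CD39, which cuts ATP and ADP to AMP and is found on microglia and vessels, had 128, 225 and 116 normalized reads in P1, P2 and P3, against 111, 127 and 113 in N1, N2 and N3. Only P2 stood out, at 1.76 times the next highest library, and the other 5 libraries lay between 111 and 128. Entpd1 had a log2 fold change of 0.43 ± 0.29 (p = 0.139, adjusted p = 0.875 by the authors' deposited table), and the value fitted to the reads was 0.07 without P2.

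Of the adenosine receptors, Adora2a showed the same single high library and Adora1 showed no difference that the test called. Adora2a (ENSMUSG00000020178), a Gs-coupled receptor that is densest in the striatum, had 35.1, 98.6 and 32.5 normalized reads in P1, P2 and P3, against 29.7, 41.7 and 35.8 in N1, N2 and N3. P2 was 2.36 times the next highest library and the others overlapped, with 19 reads behind the value in P3. The log2 fold change was 0.65 ± 0.47 (p = 0.167, adjusted p = 0.896 by the authors' deposited table), and without P2 the fitted value turned to -0.07. Adora1 (ENSMUSG00000042429) had a mean of 7360 normalized reads, p = 0.899 and adjusted p = 0.997 by the authors' deposited table. Its count is too high for the reads of each library to be recovered, and its fold change could not be back-calculated, so the deposited shrunken value of -0.0018 ± 0.025 (deposited error) is the only one.

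Markers of microglia had the same sign as the 5 receptors that these cells are known for. The enzyme gene Entpd1, also found on microglia, had the other sign (0.43 ± 0.29) and is not in the receptor sum below. All 15 microglia markers had negative fold changes, with a median of -0.44, 9 had an unadjusted p under 0.05, and 2 passed the adjusted threshold. These were Fcrls (log2 fold change -1.38 ± 0.27, adjusted p = 0.00112 in the authors' deposited table) and Itgam (-1.44 ± 0.30, adjusted p = 0.00282 in the authors' deposited table). Both fold changes were back-calculated, and the deposited shrunken ones were -1.26 for Fcrls and -0.011 for Itgam. In bulk tissue, fewer cells of a type and less RNA per cell cannot be told apart. The reads of 2 of the 15 markers could be recovered, Trem2 and Siglech, and their sum was 566, 461 and 459 in P1, P2 and P3, against 669, 733 and 716 in N1, N2 and N3. The sum of P2ry12, P2ry13, P2ry6, P2rx7 and P2rx4 was 1293, 1102 and 1065 in P1, P2 and P3, against 1371, 1500.3 and 1555 in N1, N2 and N3. Both sums were lower in every positive-side library. The ratio of the receptor sum to the marker sum was 2.29, 2.39 and 2.32 in P1, P2 and P3, against 2.05, 2.05 and 2.17 in N1, N2 and N3, and so was slightly higher on the positive side. This ratio depends on the 2 markers recovered, with log2 fold changes of -0.65 for Trem2 and -0.36 for Siglech. Over the 15 markers these values ran between -1.63 for Olfml3 and -0.07 for Sall1, so the ratio could differ with other markers. The part of the microglia markers in the receptor values was not tested. Markers of incoming monocytes and neutrophils were scarce: of 8 listed genes 5 had enough reads to be tested, Ly6g had a mean of 0.136, and the 5 tested genes, none with an unadjusted p under 0.05, summed to 71.9 to 102 in the positive-side and 66.6 to 146 in the negative-side libraries.

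**Figure D4:**
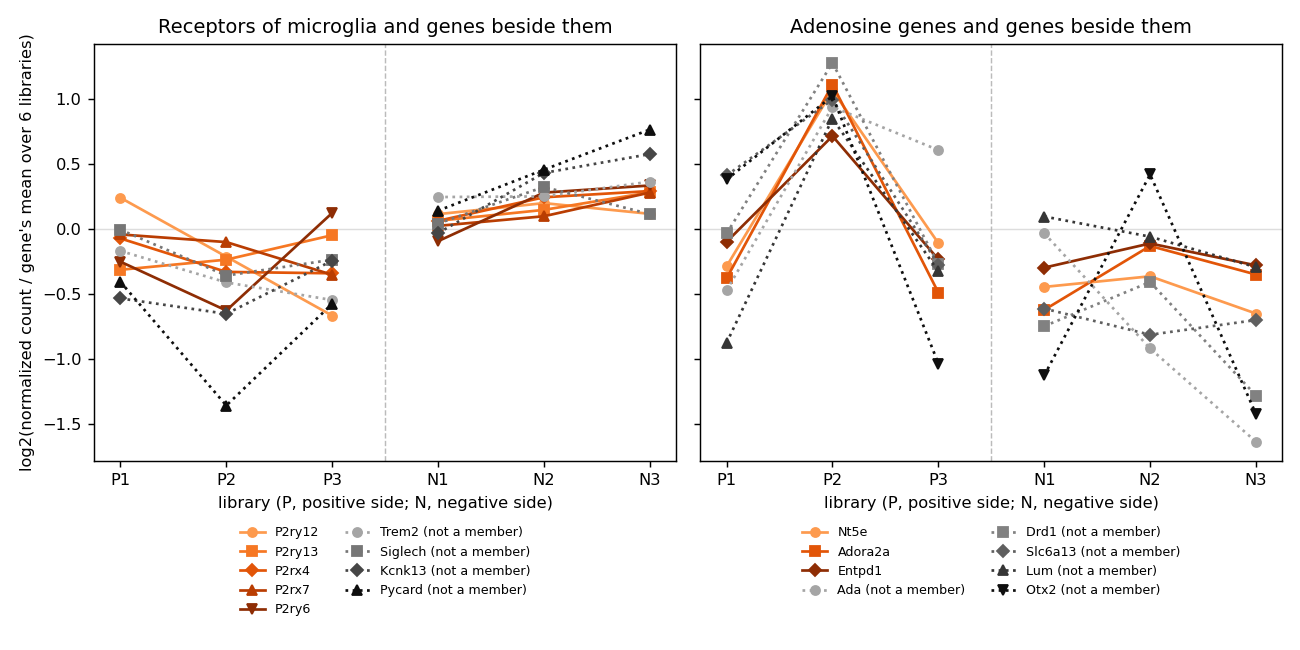
Log2 of the normalized count over the gene's mean in 6 libraries, for members (solid lines) and genes beside them (dotted lines), positive-side libraries at the left in each panel. Lines only join the points of 1 gene on 1 side. At the left the microglial receptors lie below 0 in P1 to P3 except P2ry12 in P1 and P2ry6 in P3, and at the right are 3 members highest in P2 with 5 other genes picked because they peak there too; other recovered markers, such as Gpr6 and the thalamic ones, do not.

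Library P2 was also the highest for some, not all, recovered markers of other cells. This held for 3 of 3 meningeal fibroblast markers, 2 of 3 striatal, 3 of 6 border macrophage and the 1 choroid plexus marker recovered, but for 0 of 3 thalamic markers (all highest in N2), 0 of 2 endothelial markers and not for the cortical marker Nxph4, highest in P1. P2 held the highest value for 4 of the 9 recovered members, Entpd1, Nt5e, Adora2a and P2ry1, and for 24.6% of the 232 recovered genes of the draw. Drd1, a dopamine receptor of striatal neurons, had 107, 265 and 90.7 normalized reads in P1, P2 and P3, against 65.3, 82.6 and 45.1 in N1, N2 and N3. Adora2a, densest in the striatum as well, shared with Drd1 the highest library but not the order of the others, and the striatal gene Gpr6 was highest in P1, with 46.8, 44.5 and 27.4 in P1, P2 and P3, against 13.8, 16.4 and 19.9 in N1, N2 and N3. Over the striatal list, 7 of 8 genes had positive fold changes with a median of 0.43, none passed the adjusted threshold and 3 had an unadjusted p under 0.05. These values ran between -0.02 for Penk and 1.30 for Gpr6, with 1.27 for Drd1 and 0.13 for Drd2. Penk and Drd2 had p of 0.907 and 0.761 in the authors' deposited table, and their reads by library were not recovered. The 3 recovered ones (Drd1, Rgs9, Gpr6) summed to 358, 599 and 334 in P1, P2 and P3, against 293, 301 and 259 in N1, N2 and N3.

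Nt5e is also known from fibroblasts, and markers of meningeal fibroblasts were high in P2. All 7 fibroblast markers had positive fold changes, with a median of 1.01, and 3 passed the threshold, led by Fmod (2.05 ± 0.39, adjusted p = 0.000579 in the authors' deposited table) and Slc6a13 (1.18 ± 0.31, adjusted p = 0.0385 in the authors' deposited table). After scaling z, the normal quantile of each p, by its SD over all genes, Fmod kept an adjusted p of 0.00546, while Slc6a13 (0.132) and the third called marker, Dcn (0.158), lost their calls. The recovered ones (Col1a1, Lum, Slc6a13) summed to 464, 723 and 320.1 in P1, P2 and P3, against 256, 316 and 294 in N1, N2 and N3. Of 6 choroid plexus markers all had positive fold changes, with a median of 1.30 and none with an unadjusted p under 0.05, and Otx2 had 324, 505 and 122 normalized reads in P1, P2 and P3, against 114, 333 and 92.9 in N1, N2 and N3. Border macrophage markers had 5 of 6 positive fold changes, none past the adjusted threshold and 1 with an unadjusted p under 0.05, and the recovered ones summed to 178, 242 and 147 in P1, P2 and P3, against 107, 141 and 138 in N1, N2 and N3. The 3 recovered thalamic markers (Tcf7l2, Ramp3, Lef1) summed to 561, 679.5 and 409 in P1, P2 and P3, against 378, 736 and 319.7 in N1, N2 and N3. The part of these cells in the values of Nt5e, Entpd1 and Adora2a was not tested.

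In the other cell lists, Ermn of oligodendrocytes passed on the negative side (-0.98 ± 0.21, adjusted p = 0.00282 in the authors' deposited table), and all 8 genes of that list were negative. Ccn2 (1.55 ± 0.28) and Cplx3 (1.43 ± 0.26) of deep cortical neurons passed on the positive side, each with adjusted p = 0.000199 by the authors' deposited table, and all 6 genes of that list were positive. No gene of the astrocyte, endothelium, hippocampal neuron or thalamic neuron lists passed the authors' DESeq2 threshold. An unadjusted p under 0.05 was found for 2 of 8, 1 of 6, 3 of 8 and 1 of 5 of their tested genes, in that order, and their median fold changes were -0.02, -0.03, -0.14 and 0.21 on the log2 scale.

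Around the members, 48 further genes of purinergic signalling were listed, of which 43 were tested. Of these, 1 passed the adjusted threshold (beside 0.328% of all tested genes), 4 of the 43 had an unadjusted p under 0.05 (beside 6.81%), and 18 had positive and 25 negative fold changes with a median of -0.03. The gene that passed was Pycard, the ASC adaptor that joins NLRP3, a sensor set off through P2X7, to caspase 1. It had 152, 78.7 and 135 normalized reads in P1, P2 and P3, against 222, 276 and 342 in N1, N2 and N3. The sides did not overlap and P2 was the lowest. Pycard fell by 1.20 ± 0.28 on the log2 scale on the positive side relative to the negative side, with adjusted p = 0.0158 by the authors' deposited table, and it lost this call at an adjusted p of 0.0702 under the same scaling of z. Adjusting p over all genes with a p, or over genes of at least 1 CPM, kept it at 0.0259 and 0.0129. Nlrp3 itself (mean 27.1, p = 0.949), Casp1 (mean 83.7, p = 0.293) and Il1b (mean 8.05, p = 0.820) did not pass in the authors' deposited table.

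Kcnk13, the potassium channel THIK-1 of microglia that acts with P2Y12, had 151, 139 and 185 normalized reads in P1, P2 and P3, against 214, 295 and 326 in N1, N2 and N3. All positive-side libraries were below all negative-side ones. Kcnk13 had a log2 fold change of -0.83 ± 0.24, with p = 0.000416 and adjusted p = 0.0841 by the authors' deposited table, above the threshold. Pycard and Kcnk13 are both known from microglia, whose 15 markers all had negative fold changes, and the part of these cells in both values was not tested.

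Of the genes that handle adenosine inside and outside cells, Pnp, which splits inosine, had a log2 fold change of -0.51 ± 0.21 (p = 0.0134, adjusted p = 0.475 by the authors' deposited table). Ada, which turns adenosine to inosine, had 26.7, 71.1 and 56.5 normalized reads in P1, P2 and P3, against 36.3, 19.6 and 11.9 in N1, N2 and N3, and its sides overlapped. Its log2 fold change was 1.17 ± 0.52 (p = 0.0252, adjusted p = 0.588 by the authors' deposited table). The other 6 tested genes of that list, among them the kinase Adk and the transporters Slc29a1 to Slc29a4, had p of 0.337 or more in the authors' deposited table.

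None of the remaining receptors passed, and none had an unadjusted p under 0.05. The P2X genes P2rx3 and P2rx5 had means of 32.6 and 76.3 normalized reads and p of 0.110 and 0.121 in the authors' deposited table, both positive. P2rx3 of sensory neurons had 33.4, 43.6 and 42.8 in P1, P2 and P3, against 23.7, 31.1 and 21.2 in N1, N2 and N3, without overlap. The P2Y genes P2ry14 and P2ry2 had p of 0.654 and 0.459 in the authors' deposited table, where no entry named P2ry10 had a mean above 0. Adora2b had a mean of 105 and Adora3 of 24.7, with p of 0.681 and 0.346 in the authors' deposited table. Among 8 tested ecto-enzymes beside Entpd1 and Nt5e, 4 were positive and 4 negative, with the smallest p, 0.0603, for Dpp4, a peptidase that binds adenosine deaminase, in the authors' deposited table. The 5 genes of ATP release had a median fold change of -0.04, with the smallest p, 0.0521, for Lrrc8a, a subunit of the volume-regulated anion channel, in the authors' deposited table.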

How the data were processed

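Libraries were made from hippocampal RNA with a stranded mRNA kit and sequenced as 150 bp paired-end reads. Per the labels' protocols, fastp 0.20.0 removed adapters and poor bases, HISAT2 2.1.0 placed the reads and featureCounts 2.0.1 counted them. The submitters' processing notes name DESeq2 1.28.0. No source used here states the genome build or strand setting. Both sheets of the deposited workbook hold equal values. Its mean count, a signal, is the authors' mean over 6 libraries of counts over size factors. The fold change and error were deposited on the log2 scale and are shrunken toward 0, judging by their values. Each p-value and adjusted p-value is as deposited by the authors, except where an alternative adjustment, computed from the deposited p, is named. Since the unit is a mean, the edgeR test foreseen for count tables was not run.

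Unshrunken fold changes were back-calculated from the deposited fold change and p, assuming a Cauchy prior of scale 0.0356. All fold changes given with ± are such values, for listed genes as well, except that of Adora1. That scale was the median over 186 genes of mean 8 to 16 whose reads follow from the mean alone. In the 146 of these whose fold change fitted to reads was above 0.2 in size, the ratio of back-calculated to fitted value was 1.00 in the median (quartiles 0.995 and 1.01), with the same sign in all 146. This agreement was partly built in, since the scale came from these same genes. Genes for which no scale could be solved were left out, such as Efcab11, fitted at -0.024 and back-calculated at 0.052. Of 200 genes drawn at a mean of 8 to 16, 196 had exactly 1 set of whole reads. For members and listed genes up to a mean of 500 or 420, sets of whole reads that give the deposited mean to its last digit were searched. The log2 fold change of a set had to lie within 0.06 plus 0.1 times its size of the back-calculated value. Each library had to lie between 0.3 and 2.6 times the gene's mean, or 0.02 and 5.9 times for means under 60. A gene outside these bounds could not be recovered rightly. A set was kept where a negative binomial fit with the deposited p gave the deposited fold change within 2%. Where several were left, the likelihood had to be at least 1000 times that of the next, and a set whose spread could not come from its fitted dispersion (chi-square p under 0.001) was dropped. In simulated reads at the means of 9 members, 27 of 28 sets were settled and 27 were right. Genes not settled have no values by library. Intervals of 95% take the back-calculated error as normal.

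Levels per kb used exon lengths of GENCODE M21, and promoter stretches came from RefSeq (GRCm38.p6). All members, listed signalling genes with an unadjusted p under 0.05, and up to 2 called genes per marker list were named. Members, lists and rules were chosen with earlier results of these data known. The software was Python 3.11.15 with the packages numpy 2.4.6, pandas 2.3.3, scipy 1.17.1 and matplotlib 3.10.9.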

Additional observations from a re-analysis of the deposited data

How the results depend on the processing

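No member passed at an adjusted p under 0.1 either, nor with z divided by its SD over all genes, nor with p adjusted over all genes with a p or over genes of at least 1 CPM (0 of 10 in each). The lowest adjusted p of the members was 0.872, 0.861 and 0.481 in the last 3 settings. Of the wider signalling genes, 1 passed in the authors' deposited table, 2 passed at an adjusted p under 0.1 and 0 passed with z divided by its SD, where the lowest adjusted p was 0.0702, while 1 passed over all genes with a p and 1 over genes of at least 1 CPM (0.0259 and 0.0129). In the back-calculation a sign always follows the deposited fold change, so no scale of the prior could turn it. Halving or doubling the scale of the prior cut the back-calculated values to 0.273 times or less, so their size rests on that scale. The values fitted to reads rest on it too, since only sets with a fold change near the back-calculated one were searched. This holds also for genes where 1 set was found. The closeness of fitted and back-calculated values was thus built in. The fit to reads and leaving out libraries were chosen after seeing the data. Without each library in turn, the fitted values were -0.56 to -0.11 for P2ry12, -0.60 to -0.24 for P2ry6, 0.03 to 0.33 for P2ry1, 0.07 to 0.59 for Entpd1, 0.28 to 1.09 for Nt5e and -0.073 to 0.90 for Adora2a, whose sign turned without P2. The median of the endothelium list was -0.03 and turned to 1.7e-05 with the deposited fold changes; the cause was not tested. The counts of calls were not recomputed without each library, since that needs the reads of all genes. No paired analysis was possible because the sample titles carry no replicate numbers shared by the groups, samples were only numbered in deposit order, and the libraries cannot be tied to samples. Depth limits P2ry1 and Adora2a most, with 22 and 19 reads in the shallowest library.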
